A study of Rattus norvegicus with 20 samples.

Results

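The gastrocnemius and the soleus of the rat calf were compared after ischemia of the hindlimb. The comparison used 10 of the 20 libraries of the study, 5 from gastrocnemius and 5 from soleus, all from Sprague Dawley rats whose hindlimb was made ischemic by closing the iliac and femoral arteries from inside with a catheter (labelled PAD). The other 10 libraries came from sham-operated rats of the same strain, 5 from each muscle. Libraries were chosen by these labels and by no measured value. All were stranded poly(A) RNA libraries sequenced from paired ends. Age, sex, the day of sampling and the part of the muscle that was taken are not stated in the labels used here, and nothing says which gastrocnemius and soleus came from the same rat, so p-values measure the spread between these samples.

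The soleus is a postural muscle made almost wholly of slow fibres, which use oxidative metabolism and slow isoforms of the contractile proteins. The gastrocnemius is a mixed muscle, mostly of fast fibres, with a deep region that holds more slow and oxidative fibres than its surface. Fast fibres break down glycogen and glucose quickly, store and release more calcium per contraction and tire sooner. Each sarcomeric protein complex has slow and fast members encoded by different genes, and the ratio of a slow gene to its fast partner is a common measure of fibre type.

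The ischemic libraries held 57459404 to 80549204 counts, and their median correlation with the other libraries of their group lay between 0.957 and 0.976 on log2(FPKM + 1). At least 1 FPKM was seen for 10688 ± 455 genes in gastrocnemius and 11582 ± 164 in soleus (SD, n = 5 each). The exact permutation p was 0.00794 (two-sided, the smallest that 5 against 5 can give). FPKM (fragments per kilobase of transcript) is scaled to library size, so these numbers of genes depend on that scaling. Whether the numbers differ between the muscles under another scaling was not tested. The test took in 11693 of 21926 genes, those that reached 1 FPKM in 5 or more of the 20 libraries. Levels below are CPM, counts scaled to a common library size with TMM factors, given as mean ± SD of 5 libraries. Differences are gastrocnemius minus soleus on the log2 scale with their standard error, from an edgeR quasi-likelihood fit on the 10 ischemic libraries, and a gene is called where the p adjusted over all genes tested is below 0.05. In bulk tissue, fewer cells of a type and less RNA per cell cannot be told apart.

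Of the 11693 genes, 3685 were called, or 31.5%. They were 1922 genes higher in gastrocnemius (16.4%) and 1763 lower (15.1%), and 1079 (9.23%) had a log2 difference of at least 1 (550 higher and 529 lower). The CPM values of the muscles did not overlap in 2461 genes, or 21.0%, with gastrocnemius above in 11.4% and soleus above in 9.68%. The split by direction rests on the scaling. TMM factors were 0.811 to 0.969 in gastrocnemius and 1.08 to 1.16 in soleus, and with library totals alone the median of all genes moved from -0.028 to -0.38, with 807 genes higher and 5394 lower. Differences below are therefore relative to the bulk of the genes. Among the called genes 161 changed direction with library totals, and of those with a log2 difference of at least 1 the number was 0. In a fit of all 20 libraries 1473 genes were called, and 3784 when sham soleus library 4, which stood apart from its group with 8048 genes at 1 FPKM, was left out.

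**Figure D1:**
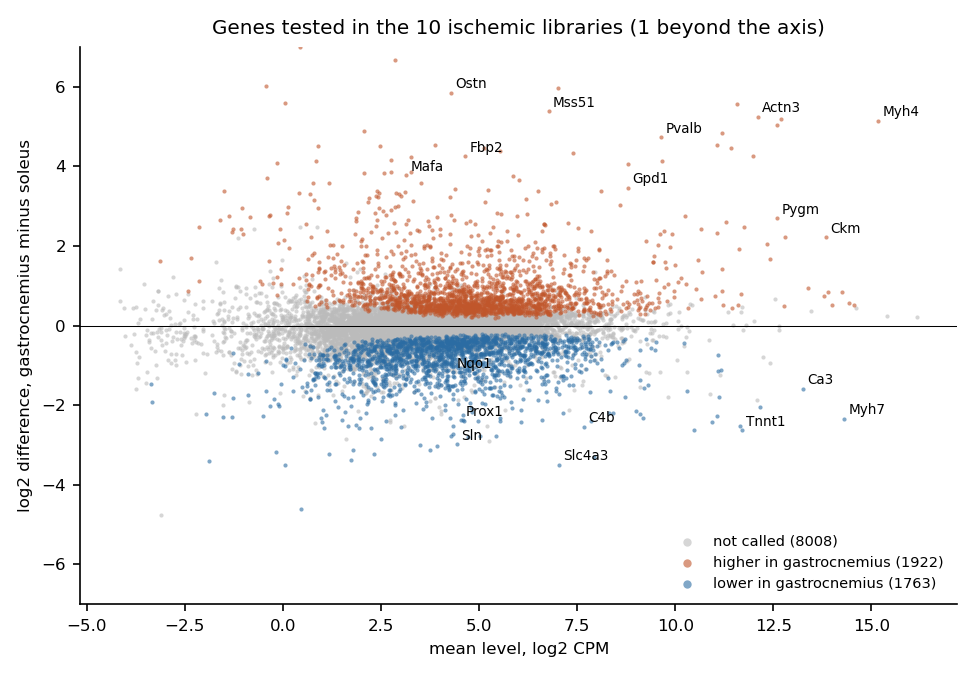
Log2 difference between gastrocnemius and soleus (vertical) against the mean level in log2 CPM (horizontal) for every gene tested in the 10 ischemic libraries, with the 1922 genes called higher in gastrocnemius in orange and the 1763 called lower in blue (1 gene lies beyond the axis). Fast sarcomere genes such as Myh4 and Actn3 and enzymes such as Pygm and Ckm lie high at the right, and Myh7, Tnnt1 and Ca3 lie low at the right.

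The slow and fast sarcomere had the largest median differences of the 39 gene lists described here. The lists were chosen with earlier results of these data known, so the order of their medians is only a description. Tnni2, the fast troponin I that blocks contraction when calcium is low, had 3622, 6805, 3629.8, 4506 and 3933 CPM in gastrocnemius libraries 1 to 5 and 222, 15.8, 123, 385 and 36.3 in soleus libraries 1 to 5. Its slow partner Tnni1 had 1028, 21.5, 845, 631 and 1153 CPM in gastrocnemius libraries 1 to 5 and 3528, 3404, 3502, 3428 and 3785 in soleus libraries 1 to 5. Neither gene's values overlapped between the muscles, and gastrocnemius library 2 had by far the least Tnni1 of all 10. The log2 difference of Tnni2 (ENSRNOG00000020276, chromosome 1, 215609036 to 215611658) was 4.85 ± 0.79 (adjusted p = 0.00207) and that of Tnni1 (ENSRNOG00000009073, chromosome 13, 52624878 to 52637297) -2.26 ± 0.69 (adjusted p = 0.0308). Positions are those in the deposited table, and the sources used here name no build for them.

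The windows around the transcription starts of a pair of slow genes and a pair of fast genes are shown as examples. These genes belong to the isoform pairs that describe fibre type below, and fibre type was not measured apart from such genes. The windows run from 250 bases before to 50 after the RefSeq start in the rat assembly GRCr8, 5′ to 3′ along the gene. Capitals mark every match to CANNTG, the E-box letters that MyoD family factors bind. Tnni1 lies at chr13:49781279-49781578, plus strand, Tnnt1 (slow troponin T) at chr1:78348785-78349084, plus strand, Tnni2 at chr1:207024240-207024539, plus strand and Mylpf (a fast regulatory myosin light chain, Myl11 in RefSeq) at chr1:191260039-191260338, plus strand.
Tnni1: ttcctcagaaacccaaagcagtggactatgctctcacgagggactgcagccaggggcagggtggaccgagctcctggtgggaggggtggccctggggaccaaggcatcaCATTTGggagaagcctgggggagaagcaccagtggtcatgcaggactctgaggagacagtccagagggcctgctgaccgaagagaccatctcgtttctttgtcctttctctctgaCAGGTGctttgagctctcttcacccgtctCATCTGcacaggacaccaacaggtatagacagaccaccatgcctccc
Tnnt1: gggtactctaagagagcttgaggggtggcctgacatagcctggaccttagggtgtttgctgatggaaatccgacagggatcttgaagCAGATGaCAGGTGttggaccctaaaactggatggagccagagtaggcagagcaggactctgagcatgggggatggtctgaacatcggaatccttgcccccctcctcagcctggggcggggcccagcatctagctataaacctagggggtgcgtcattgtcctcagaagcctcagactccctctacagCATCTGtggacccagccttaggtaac
Tnni2: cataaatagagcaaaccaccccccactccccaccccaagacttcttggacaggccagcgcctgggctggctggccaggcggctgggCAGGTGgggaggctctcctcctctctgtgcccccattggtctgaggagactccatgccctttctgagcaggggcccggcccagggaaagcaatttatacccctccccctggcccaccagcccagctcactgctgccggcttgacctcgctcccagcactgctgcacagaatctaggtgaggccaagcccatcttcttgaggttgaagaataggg
Mylpf: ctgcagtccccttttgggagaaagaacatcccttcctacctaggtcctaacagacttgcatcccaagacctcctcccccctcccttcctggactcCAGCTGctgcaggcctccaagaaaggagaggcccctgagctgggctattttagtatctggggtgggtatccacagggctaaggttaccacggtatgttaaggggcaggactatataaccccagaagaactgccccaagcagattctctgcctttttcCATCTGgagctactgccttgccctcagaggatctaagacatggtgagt
The slow windows held 3 matches each, that of Tnni2 held 1 and that of Mylpf 2, and none held a match to the TEAD factor motif CATTCC on either strand or to the MEF2 consensus. An E-box match was found in 72.4% of 369 matched promoters of genes called higher in gastrocnemius with a log2 difference of at least 1, and in 66.3% of 359 of those called lower. The share was 61.6% of 8648 promoters of all genes tested and 71.6% of all 27457 promoters in the table. A MEF2 match was held by 3.52%, 2.79%, 1.61% and 3.37% of the same 4 sets, and CATTCC by 13.8%, 12.3%, 11.1% and 13.9%. The other motifs scanned did not follow this order. The NFAT factor core GGAAA was held by 47.2%, 54.9%, 58.4% and 62.5%, and the MEF3 motif TCAGGTT by 2.98%, 3.06%, 3.23% and 4.02%. Both were less common in the called sets than in all genes tested. The estrogen-related receptor motif AAGGTCA was held by 4.34%, 2.23%, 2.66% and 4.37%. Such a match is a description of the letters and not of a bound site.

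In the fast sarcomere list 10 of 11 genes were called higher and none lower, with a median log2 difference of 4.85 against -0.028 over all genes. The shares of all genes called were 16.4% higher and 15.1% lower. Myh4, the heavy chain of the fastest fibres, had 42824, 119005, 63564, 67353 and 66839 CPM in gastrocnemius libraries 1 to 5 and 2680.2, 217, 1447, 5033 and 731 in soleus libraries 1 to 5, a log2 difference of 5.15 ± 0.78 (adjusted p = 0.0015). Its gene model overlaps that of the neonatal heavy chain Myh8 on the same strand, so the values of both are uncertain, and Myh8 had a log2 difference of 5.98 ± 0.53 (adjusted p = 0.000225). The lowest gastrocnemius value of Myh4 was more than any soleus value, and gastrocnemius library 2 had the most. Actn3, the fast alpha-actinin that anchors thin filaments at the Z-disc, had 2591, 20872, 6879, 6105 and 6474 CPM in gastrocnemius libraries 1 to 5 and 33.8, 30.1, 17.8, 965 and 80.7 in soleus libraries 1 to 5. The soleus values of Actn3 spread widely, with library 4 far above the other 4. Its log2 difference was 5.25 ± 1.27 (adjusted p = 0.0118). Mybpc2 (fast myosin binding protein C, 5.56 ± 1.08), Tpm1 (tropomyosin 1, 5.18 ± 0.72), Tnnt3 (fast troponin T, 5.05 ± 0.78), Tnnc2 (fast troponin C, the calcium sensor, 4.54 ± 0.72) and Mylpf (4.27 ± 0.74) were called as well. Myl1, a fast essential light chain, was also called higher, with 2.06 ± 0.297. Without soleus library 4 the differences of Actn3 and Mybpc2 were 7.72 and 7.42, those of Myh4, Tnni2, Tnnt3, Tpm1, Tnnc2 and Mylpf between 4.98 and 5.89, and 10 genes of the list stayed called without any 1 library. Mybph (myosin binding protein H) was the member not called, at 0.012 (adjusted p = 0.992), or 1.26 without soleus library 1.

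In the slow sarcomere list 6 of 10 genes were called lower in gastrocnemius, against 15.1% of all genes, and none higher. The list median was -2.29. Myh7, the slow heavy chain, had 9116, 209, 9057, 4258 and 10817 CPM in gastrocnemius libraries 1 to 5 and 36775, 28808, 34978, 28138 and 40638 in soleus libraries 1 to 5. All 5 soleus libraries had more than any gastrocnemius library, and gastrocnemius library 2 had the least. Its log2 difference was -2.34 ± 0.71 (adjusted p = 0.0300), and a share of its reads could belong to the similar neighbouring gene Myh6. Tnnc1 (slow and cardiac troponin C) had -2.62 ± 0.69, Tnnt1 -2.62 ± 0.73, Tpm3 (slow tropomyosin) -2.52 ± 0.66 and Myl2 (slow regulatory light chain) -2.31 ± 0.68, each called. Myl3, the slow essential light chain, had 1883 ± 1145 CPM in gastrocnemius and 6855 ± 410.3 in soleus, a log2 difference of -1.86 ± 0.67 (adjusted p = 0.0559), and was not called although its values did not overlap between the muscles. Myh7b (-2.12 ± 0.75) and Mybpc1 (-0.011 ± 0.13, slow myosin binding protein C) were not called either. Mybpc1 had 6393 ± 836 CPM in gastrocnemius and 6441 ± 531 in soleus. Leaving out 1 library gave 2 to 8 genes called lower, with the fewest without gastrocnemius library 4 (2) or 3 (3) and 8 without library 2. Myh7 was called in 5 and Tnni1 in 3 of those 10 fits, and without gastrocnemius library 4 their differences were -2.197 and -2.196.

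Genes of developing and regenerating fibres varied widely between libraries of the same muscle. Of 7 genes 2 were called higher, Myh8 and the embryonic light chain Myl4 (1.496 ± 0.38), and none lower. The shares of all genes were 16.4% and 15.1%. The gene model of Myh8 overlaps that of Myh4, so its value is uncertain. Myh3, the embryonic heavy chain, had 597, 104, 111, 248 and 112 CPM in gastrocnemius and 565, 53.3, 66.2, 80.9 and 102 in soleus. Library 1 was highest in both muscles and the groups overlapped, and Myh3 was not called (0.43 ± 0.75, adjusted p = 0.679). Without gastrocnemius library 1, 2 genes of the list were called lower. Actc1, the actin of heart and developing fibres, had 248, 7.82, 64.7, 38.4 and 61.6 CPM in gastrocnemius and 795, 70.9, 113, 180.3 and 136 in soleus, and was not called either (-1.62 ± 0.87, adjusted p = 0.173). It too was highest in library 1 of each muscle.

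The slow share of each isoform pair, which needs no scaling between libraries, showed how the pieces of muscle differed within a group. Tnni1 made up 28.04, 0.432, 24.2, 16.1 and 28.7% of Tnni1 and Tnni2 FPKM in gastrocnemius libraries 1 to 5, and 95.6, 99.7, 97.5, 92.4 and 99.3% in soleus libraries 1 to 5. Gastrocnemius library 2 was nearly free of slow isoforms in all 9 pairs, with shares from 0.0742% (Myl2 of Myl2 and Mylpf) to 0.541% (Myl3 of Myl3 and Myl1). The other 4 gastrocnemius libraries had 16.1% to 28.7% Tnni1. Soleus library 4 had the lowest slow share of the soleus group in 8 of the 9 pairs. The pairs did not move alike in soleus: Casq2, the slow and cardiac form of the calcium store protein calsequestrin, made up 41.9, 52.5, 47.1, 31.5 and 50.4% of Casq2 and Casq1 there, and 6.73, 0.0968, 4.897, 2.64 and 5.403% in gastrocnemius. Sham gastrocnemius also spread, from 0.585% to 31.1% Tnni1.

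**Figure D2:**
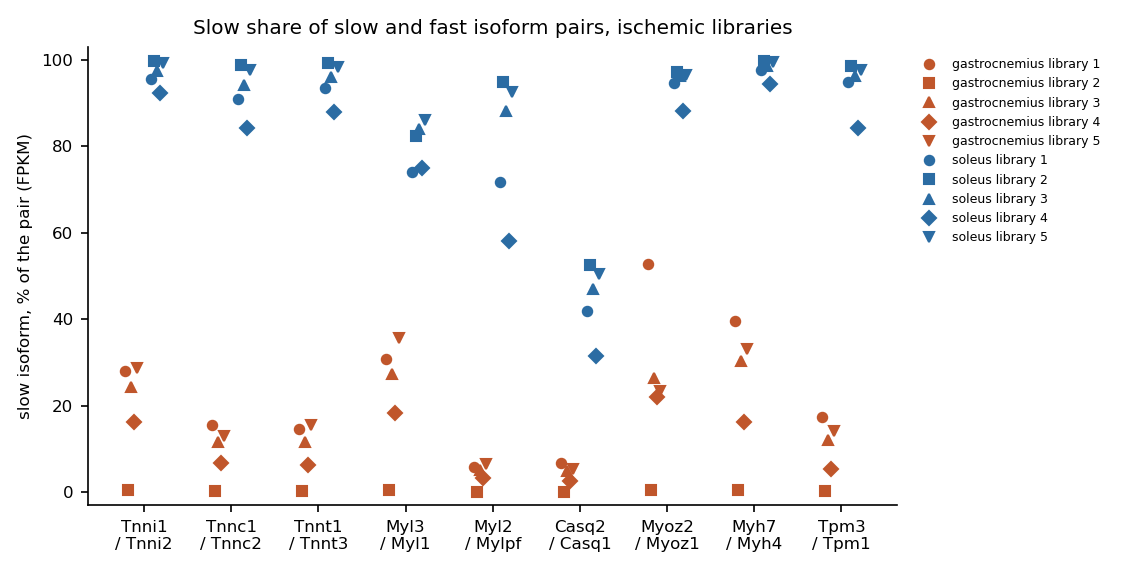
Share of the slow isoform in the summed FPKM of 9 slow and fast isoform pairs (vertical, percent), with a point for each ischemic library, gastrocnemius in orange and soleus in blue, and a marker shape for each library number within a muscle. Gastrocnemius library 2 lies near 0 in every pair, soleus library 4 lies below most soleus libraries, and the muscles do not overlap in any pair.

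Outside the sarcomere, the rule for naming genes picked Ostn, Mss51, Pvalb and Six2 among the largest differences upward. The rule took only called genes whose groups did not overlap. The calls and the lack of overlap of these genes were thus set by the rule and are no separate result. Ostn encodes osteocrin, a peptide secreted by muscle and bone, and had 14.6, 104, 25.3, 38.01 and 8.28 CPM in gastrocnemius and 0.564, 0.196, 0.627, 0.709 and 1.21 in soleus. Every soleus value lay below every gastrocnemius value, and the log2 difference was 5.85 ± 0.78 (adjusted p = 0.000866). Mss51, a muscle mitochondrial protein, had 213 ± 152 CPM in gastrocnemius and 5.07 ± 1.68 in soleus, a log2 difference of 5.396 ± 0.53 (adjusted p = 0.000272). Pvalb, the calcium buffer parvalbumin of fast fibres, had 597, 3623, 1076, 1326 and 1099 CPM in gastrocnemius and 8.03, 7.78, 4.06, 255 and 15.4 in soleus. Library 2 held the most in gastrocnemius and library 4 the most in soleus, and the log2 difference was 4.73 ± 1.26 (adjusted p = 0.0176). Six2, a homeobox factor, had 5.06, 32.9, 5.499, 6.997 and 2.47 CPM in gastrocnemius and 0.311, 1.101, 0.4704, 0.0868 and 0.338 in soleus, a log2 difference of 4.504 ± 0.84 (adjusted p = 0.00369). Its values in gastrocnemius library 2 stood far above the rest. Without gastrocnemius library 2 the differences of Six2 and Ostn were 3.44 and 5.05, and that of Pvalb without soleus library 4 was 7.45.

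Downward the rule picked, beside slow sarcomere genes, Slc4a3, Sbk3, Sln, Fhl2, Eps8l2, Ryr3, Colq, Tecrl and unnamed gene models. It used the same conditions, so their calls and lack of overlap were also set by the rule. Slc4a3, a chloride and bicarbonate exchanger, had 27.9, 3.22, 31.3, 17.8 and 27.6 CPM in gastrocnemius and 124, 269, 353, 243 and 225 in soleus. The muscles did not overlap, and the log2 difference was -3.49 ± 0.53 (adjusted p = 0.0015). Sln, sarcolipin, which inhibits the calcium pump of the sarcoplasmic reticulum, had 4.86 ± 4.28 CPM in gastrocnemius and 38.5 ± 13.8 in soleus, a log2 difference of -2.98 ± 0.65 (adjusted p = 0.00753), or -3.58 without gastrocnemius library 1. Colq, the collagen tail that anchors acetylcholinesterase at the synapse, had a log2 difference of -2.76 ± 0.71 (adjusted p = 0.0154). Fhl2, a LIM protein of the sarcomere, had -2.801 ± 0.63, the actin regulator Eps8l2 -2.78 ± 0.47, the ryanodine receptor Ryr3 -2.77 ± 0.36, the trans-2-enoyl-CoA reductase family gene Tecrl -2.73 ± 0.73 and the kinase family gene Sbk3 -2.99 ± 0.85. The unnamed gene model AC115371.1 lies on the strand opposite Myh6 and had no count in any gastrocnemius library. It had 2.68 CPM on average in soleus, at least 55.8-fold higher than a floor of 3 counts in a gastrocnemius library, and reads of Myh6 cannot be told apart from it if strand was not used in counting. AC128207.1, beside Myl6 on the same strand, had 44.9 ± 32.98 CPM in gastrocnemius and 439.9 ± 113 in soleus, a log2 difference of -3.29 ± 0.64 (adjusted p = 0.00466).

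Genes that store, release and pump calcium differed in both directions. Of 17 measured members 12 were called higher in gastrocnemius and 4 lower, against 16.4% and 15.1% of all genes. The list median was 0.902 (0.54 with library totals). Without gastrocnemius library 4, 2 were called lower. Casq1, the fast calsequestrin, had 2732 ± 1277 CPM in gastrocnemius and 507 ± 108 in soleus, a log2 difference of 2.43 ± 0.29 (adjusted p = 0.000535). Jph2 and Jph1, the junctophilins that tie the reticulum to the T-tubule, had 1.65 ± 0.34 and 1.58 ± 0.297. Ryr1, the calcium release channel, had 1.42 ± 0.27 and Cacna1s, the voltage sensor, 1.46 ± 0.22. The members called lower were the pump Atp2a2 (1781 ± 1183 CPM in gastrocnemius and 7394 ± 1353 in soleus, -2.05 ± 0.59), Casq2 (-2.19 ± 0.62), Sln and the pump inhibitor phospholamban (Pln, -1.47 ± 0.37). The fast pump gene was not analysed here. Stac3, which couples the voltage sensor to release, was not called, at 0.095 (adjusted p = 0.621).

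Among ion channels and carriers of the fibre membrane 13 of 26 were called higher in gastrocnemius and 3 lower. The shares of all genes were 16.4% and 15.1%. The list median was 0.68, or 0.29 with library totals. Without gastrocnemius library 2, 5 were called lower. Atp1b2, a beta subunit of the sodium pump, had 55.7, 752, 282, 279 and 241 CPM in gastrocnemius and 11.8, 12.9, 10.2, 34.999 and 10.2 in soleus. Every gastrocnemius library lay above every soleus library, with a log2 difference of 4.33 ± 0.66 (adjusted p = 0.00153), while the partner Atp1b1 was not called (-0.76 ± 0.496, adjusted p = 0.255). Aqp4, the water channel of fast fibres, had 3.75 ± 0.504, and the potassium channels Kcnc4 and Kcnj12 3.38 ± 0.32 and 2.32 ± 0.35. Ca3, the carbonic anhydrase of slow fibres, had 2597 ± 856 FPKM in gastrocnemius and 9824 ± 1597 in soleus, not scaled by the TMM factors. Counted per library it had 5395, 2524, 6267, 4681 and 5392 CPM in gastrocnemius and 12526, 16388, 16815, 11608 and 15499 in soleus. All 5 soleus values lay above those of gastrocnemius, with a log2 difference of -1.59 ± 0.24 (adjusted p = 0.00132).

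Glycolytic enzymes had the next largest list median after the sarcomere lists, close in size to that of the adipocyte list (-2.16). With library totals the adipocyte median, -2.40, lay farther from 0 than the glycolysis median, 1.85. Of 21 glycolysis genes 15 were called higher in gastrocnemius and 1 lower, with a median of 2.22. The shares of all genes were 16.4% and 15.1%. Ldha, which turns pyruvate into lactate, had 1435, 2969, 1872, 2153 and 2180.3 CPM in gastrocnemius libraries 1 to 5 and 311, 229.8, 297, 456 and 275 in soleus libraries 1 to 5. The groups did not overlap, and the log2 difference was 2.76 ± 0.24 (adjusted p = 0.000225). Ldhb, the oxidative form of the same enzyme, had 281 ± 165 CPM in gastrocnemius and 819 ± 170.2 in soleus, a log2 difference of -1.54 ± 0.61 (adjusted p = 0.0739), and was not called. Fbp2, the muscle fructose bisphosphatase, had the largest difference of the list at 4.26 ± 0.34 (adjusted p = 0.000194), from 47.5 against 2.48 CPM. Gpd1 and Gpd2, which shuttle electrons from the cytosol to the mitochondria, had 3.47 ± 0.46 and 3.18 ± 0.42, and Pfkfb3, which makes the activator of phosphofructokinase, 2.56 ± 0.64. Eno3, the muscle enolase, had 2.47 ± 0.26, while the general form Eno1 was not called, at 0.11 (adjusted p = 0.435). Hexokinases, which trap glucose in the cell, were not called: Hk2 had -0.86 ± 0.37 (adjusted p = 0.0997) and Hk1 -0.58 ± 0.25 (adjusted p = 0.0956). Pgam1, with -0.798 ± 0.22, was the member called lower.

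Genes of glycogen storage and use were called more often higher than lower in gastrocnemius. Of 18 genes 9 were called higher and 2 lower, against 16.4% and 15.1% of all genes (list median 0.62, or 0.24 with library totals). Pygm, muscle glycogen phosphorylase, which releases glucose units, had 5183, 19684, 9540.4, 9599.8 and 9891 CPM in gastrocnemius and 1436, 1411, 1630.3, 2076 and 1786 in soleus. The lowest gastrocnemius value lay above the highest in soleus, with a log2 difference of 2.69 ± 0.32 (adjusted p = 0.000505). Its activating kinase subunits Phkg1 (3.11 ± 0.37), Phka1 (3.04 ± 0.38) and Phkb (2.38 ± 0.32) were called higher as well. The branching enzyme Gbe1 was called lower (-1.17 ± 0.26). The synthase Gys1 and the primer Gyg1 were not called (0.19 and -0.23, adjusted p = 0.266 and 0.0561).

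Genes that buffer ATP were split by isoform. Ckm, muscle creatine kinase, had 13824 ± 3957 FPKM in gastrocnemius and 3835 ± 559 in soleus, not scaled by the TMM factors. Its log2 difference, which uses those factors, was 2.22 ± 0.24 (adjusted p = 0.000325). Its mitochondrial partner Ckmt2 was not called (-0.075 ± 0.28, adjusted p = 0.854). Of the subunits of AMPK, the energy sensing kinase, Prkag3 (gamma 3) had 32.1, 294, 119, 68.3 and 89.3 CPM in gastrocnemius and 9.89, 5.87, 5.47, 16.4 and 10.4 in soleus. The muscles did not overlap, and library 2 stood highest in gastrocnemius, with a log2 difference of 3.65 ± 0.58 (adjusted p = 0.00183). Prkab2 (1.88 ± 0.299) and Prkaa2 (1.37 ± 0.27) were also called higher, while the other catalytic subunit Prkaa1 was called lower (-1.19 ± 0.14). The AMP deaminases went opposite ways too, Ampd1 with 2.13 ± 0.32 and Ampd3 with -1.58 ± 0.36. In the list 7 of 17 genes were called higher and 3 lower, against 16.4% and 15.1% of all genes. The list median was 0.015, and -0.34 with library totals. Without gastrocnemius library 2 the difference of Prkag3 was 3.02.

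**Figure D3:**
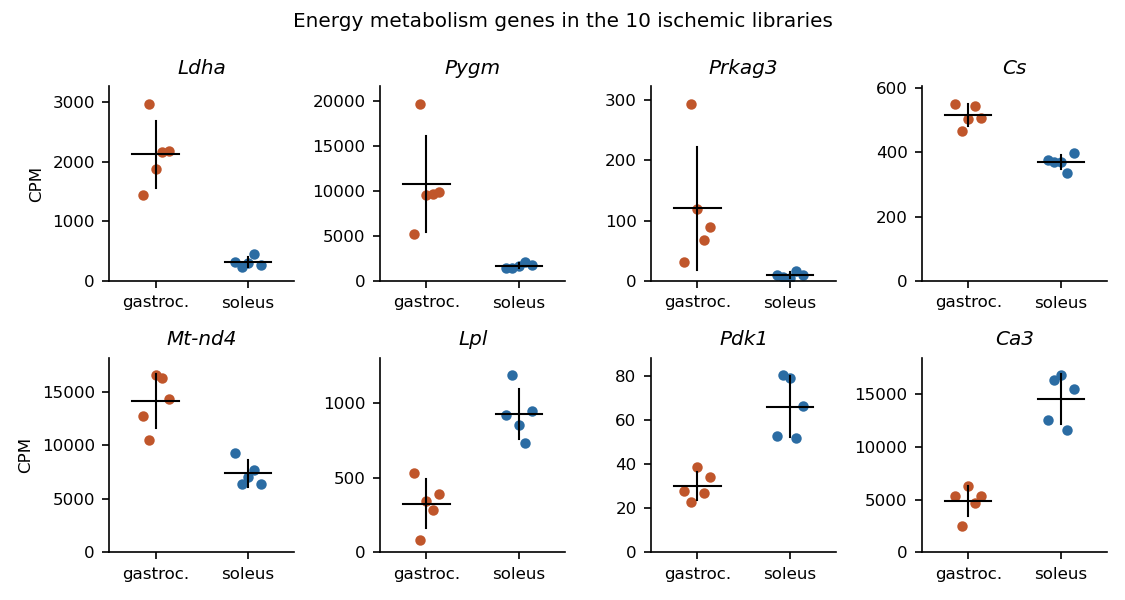
CPM of 8 genes of energy metabolism in the 10 ischemic libraries, gastrocnemius in orange and soleus in blue, with a point for each library, the mean as a horizontal line and the SD as a vertical line (n = 5 each). Ldha, Pygm, Prkag3, Cs and Mt-nd4 are higher in gastrocnemius and Lpl, Pdk1 and Ca3 higher in soleus, with no overlap in any of the 8. The 8 were picked from the genes named in the text, and the muscles did not overlap in 21.0% of all genes tested.

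Many genes of mitochondrial respiration were called higher in gastrocnemius, and this depended on the scaling and on single libraries. Of 13 mitochondrially encoded genes 11 were called higher in gastrocnemius and none lower, against 16.4% and 15.1% of all genes. The list median was 0.61, which was 0.26 with library totals alone, when 6 were called. Leaving out 1 library gave 6 to 13, with 6 without soleus library 3, 4 or 5 and 7 without soleus library 2 or gastrocnemius library 3, 4 or 5. Mt-nd4, a complex I subunit whose gene model overlaps that of Mt-nd4l, had 12771, 10555, 16570, 16345 and 14344 CPM in gastrocnemius libraries 1 to 5 and 9314, 6364, 7035, 7749 and 6437 in soleus libraries 1 to 5. The muscles did not overlap, and the log2 difference was 0.94 ± 0.17 (adjusted p = 0.00348). Mt-co1, a cytochrome oxidase subunit, was not called, at 0.21 (adjusted p = 0.392) and -0.14 with library totals. As a share of all FPKM, the mitochondrially encoded genes made up 45.7, 32.7, 46.4, 48.5 and 42.98% in gastrocnemius libraries and 41.5, 38.7, 38.7, 40.7 and 38.4% in soleus libraries. Gastrocnemius library 2, with the smallest slow shares, had the lowest share of all 10, and the other 4 gastrocnemius libraries had the highest.

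In the TCA cycle 14 of 22 genes were called higher in gastrocnemius and none lower, against 16.4% and 15.1% of all genes. The list median was 0.46. With library totals the median was 0.11 and 6 were called higher. Idh3a, a subunit of the NAD-dependent isocitrate dehydrogenase, had 1.36 ± 0.102, the succinyl-CoA ligase gene Sucla2 0.98 ± 0.101, Mdh2 0.81 ± 0.11 and Cs, citrate synthase, 0.48 ± 0.091. Idh2, the NADP-dependent form, was not called (-0.51 ± 0.23, adjusted p = 0.104). Of 38 nuclear genes of oxidative phosphorylation 14 were called higher and 1 lower, with a median of 0.296 that turned to -0.052 with library totals, when 0 were called higher. Without gastrocnemius library 2 the number called higher was 23, while it was 8 without gastrocnemius library 5 or soleus library 4 and 9 without soleus library 1 or 3. Uqcrfs1 (complex III, 0.66 ± 0.15), Cycs (cytochrome c, 0.64 ± 0.12) and Atp5f1a (ATP synthase alpha, 0.53 ± 0.12) were the leading ones, and Cox6a1, the general form of a cytochrome oxidase subunit, was the member called lower (-0.93 ± 0.24). Breakdown of branched-chain amino acids had 12 of 21 genes called higher, among them the transaminase Bcat2 (1.22 ± 0.24), and 1 lower, the cytosolic form Bcat1 (-1.496 ± 0.44). Its median was 0.45, and 0.093 with library totals.

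Called genes of fatty acid uptake and oxidation were more often lower in gastrocnemius than higher, at a share close to that of all genes when all 10 libraries were used. Of 33 genes 5 were called lower in gastrocnemius and 2 higher, with a median of -0.32 (-0.65 with library totals), against 15.1% of all genes called lower. Without gastrocnemius library 1 the number called lower was 10. Lpl, which frees fatty acids from blood lipids, had 533, 82.02, 346, 284 and 389.8 CPM in gastrocnemius and 920.3, 1187, 856, 730.1 and 949 in soleus. Every soleus library lay above every gastrocnemius library, and the log2 difference was -1.505 ± 0.38 (adjusted p = 0.0147). The fatty acid transporter Slc27a1 (-1.42 ± 0.36), the lipid droplet protein Plin2 (-1.004 ± 0.17) and the mitochondrial gatekeeper Cpt1b (-0.61 ± 0.14, its gene model overlapping Chkb) were called lower as well. Fabp3, the muscle fatty acid binding protein, had 380.4 ± 202 CPM in gastrocnemius and 849.7 ± 204 in soleus and was not called (adjusted p = 0.0652). Acsl6, an acyl-CoA synthetase, was called higher with 2.00003 ± 0.15.

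Among genes of fuel choice, the lactate exporter Slc16a3 was called higher in gastrocnemius (2.58 ± 0.34, adjusted p = 0.000823), and the lactate importer Slc16a1 was not called (-0.599 ± 0.26, adjusted p = 0.101). The pyruvate dehydrogenase kinases, which turn off glucose oxidation, divided: Pdk1 was called lower (-1.13 ± 0.18) and Pdk2 higher (0.59 ± 0.18), while Pdk4 was not called (-0.36 ± 0.49, adjusted p = 0.596). Bdh1, a ketone body enzyme, and Angptl4, an inhibitor of Lpl, were called lower with -2.25 ± 0.68 and -1.95 ± 0.56. The calls of Pdk2 and Bdh1 were kept in 4 and 5 of the 10 fits that left out 1 library, and Angptl4 had -1.27 without soleus library 2, where it was not called. Mb, the oxygen store myoglobin, had 7285 ± 2293 CPM in gastrocnemius and 4619.6 ± 434 in soleus and was not called (adjusted p = 0.0581). Of the mitochondrial regulators 3 of 19 were called higher and 1 lower with a median of 0.047 that was -0.302 with library totals. Among all genes 16.4% were called higher and 15.1% lower. The coactivator Ppargc1a had 23.8 ± 10.3 CPM in gastrocnemius and 15.5 ± 5.41 in soleus, a log2 difference of 0.62 ± 0.29 (adjusted p = 0.124), with overlapping groups.

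Transcription factors tied to fibre type stood on both sides. Of 30 listed factors 10 were called higher in gastrocnemius and 7 lower, against 16.4% and 15.1% of all genes. The list median of 0.27 turned to -0.078 with library totals. Mafa, a large Maf factor, had 9.398, 31.6, 15.8, 15.6 and 9.84 CPM in gastrocnemius and 1.78, 0.856, 0.894, 1.08 and 1.38 in soleus, and its log2 difference was 3.77 ± 0.38 (adjusted p = 0.000306). The muscles did not overlap. Sox6, a repressor of slow genes in the mouse, had 2.505 ± 0.23, the myogenic factor Myod1 2.79 ± 0.33 and Tbx15, which promotes fast fibres in the mouse, 0.97 ± 0.13. In the other direction Prox1, a homeobox factor needed for slow fibres in the mouse, had 9.35, 1.65, 9.71, 6.01 and 10.98 CPM in gastrocnemius and 31.5, 43.6, 35.7, 39.9 and 45.3 in soleus. All soleus values were above those of gastrocnemius, with a log2 difference of -2.38 ± 0.398 (adjusted p = 0.00224). The estrogen-related receptors Esrrb and Esrrg had -3.22 ± 0.696 and -1.62 ± 0.33, the calcineurin feedback gene Rcan1 -1.79 ± 0.399 and the myogenic factor Myog -1.64 ± 0.27. The calcineurin-activated factor Nfatc1 was not called (0.13, adjusted p = 0.623). Of 9 measured position genes 4 were called higher, namely Lbx1 (1.57 ± 0.53), Hoxd8 (1.56 ± 0.27), Hoxd9 (1.22 ± 0.32) and Hoxc10 (0.34 ± 0.092, and -0.020 with library totals), and 0 lower. Lbx1 was called in 2 of the 10 fits that left out 1 library.

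**Figure D4:**
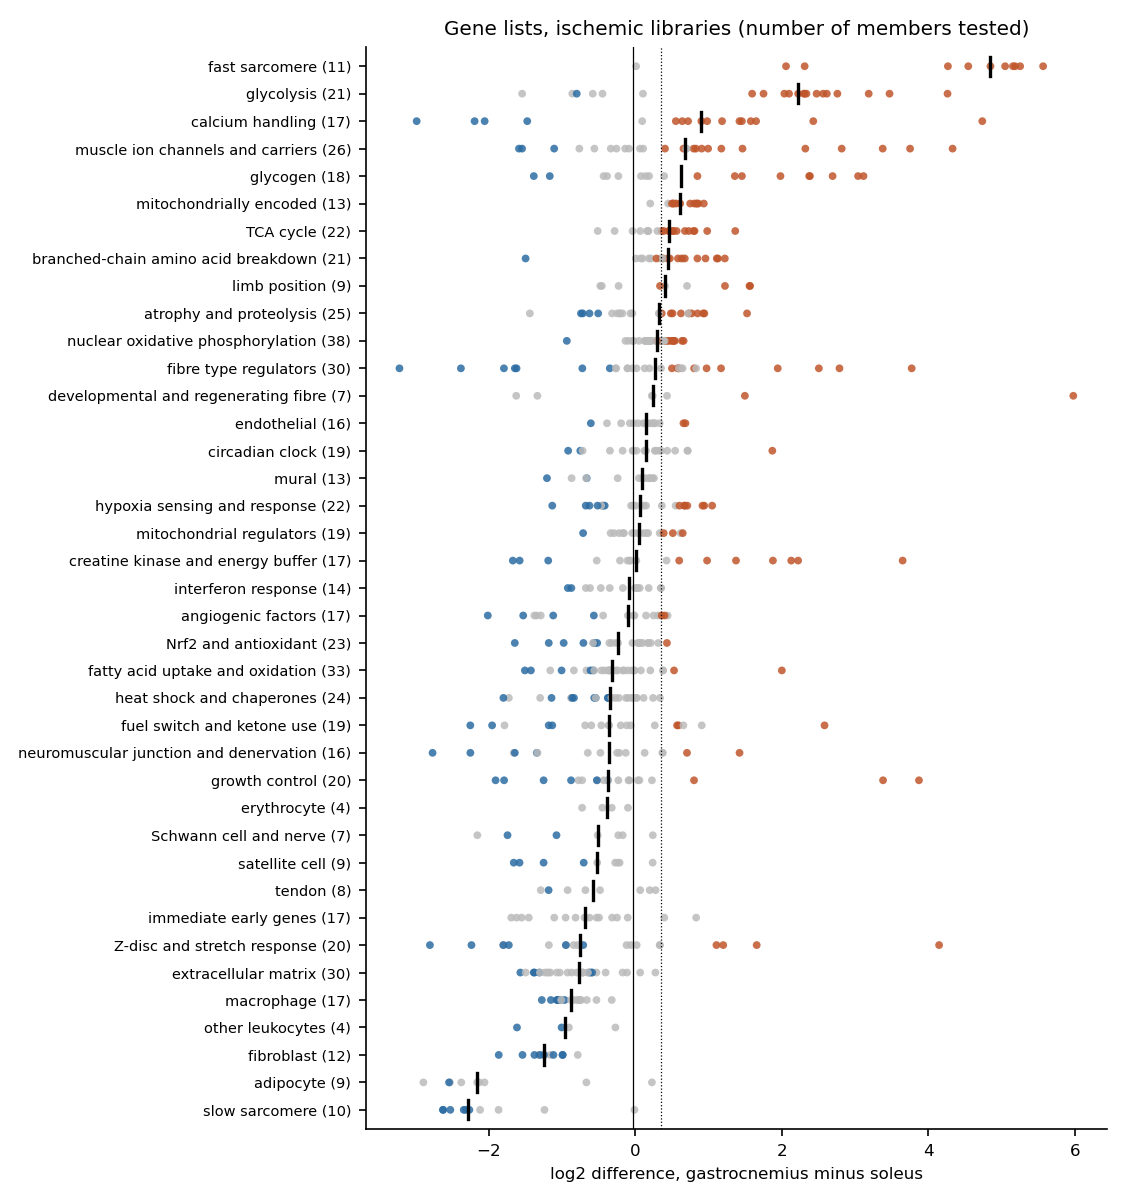
Log2 difference between gastrocnemius and soleus (horizontal) of each tested member of 39 gene lists, ordered by the list median (black bars), with members called higher in orange, lower in blue and not called in grey. The solid line is the median of all genes (-0.028), the dotted line marks about where 0 would fall with library totals alone, and the fast sarcomere and glycolysis lists lie farthest right and the slow sarcomere and adipocyte lists farthest left.

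Z-disc genes were called in both directions, and the chaperones called with all 10 libraries were lower in gastrocnemius. Of 20 Z-disc genes 6 were called lower in gastrocnemius and 4 higher, against 15.1% and 16.4% of all genes. Ankrd2, a stretch sensor of slow fibres, had 193 ± 151 CPM in gastrocnemius and 909.5 ± 171 in soleus, a log2 difference of -2.23 ± 0.72 (adjusted p = 0.0372), called in 2 of the 10 fits that left out 1 library. Myoz1, the calsarcin of fast fibres, had 4.15 ± 0.49 (adjusted p = 0.000554), and its slow partner Myoz2 had 399 ± 275 CPM in gastrocnemius and 1393 ± 144 in soleus and was not called (adjusted p = 0.0758). Of 24 chaperones 8 were called lower and none higher (median -0.35, or -0.701 with library totals). The number called lower was 5 without gastrocnemius library 4 or soleus library 2 or 3, and without gastrocnemius library 1 2 were called higher. Cryab, the alpha B crystallin that protects desmin and actin, had 1202, 270.3, 1223, 1126 and 1165 CPM in gastrocnemius and 3404, 4886, 3395, 2576 and 3082 in soleus. The groups did not overlap, and the log2 difference was -1.798 ± 0.36 (adjusted p = 0.00545). Hspb6 (-1.14 ± 0.34), Hsp90aa1 (-0.86 ± 0.18) and the cochaperone Dnaja4 (-0.84 ± 0.23) were called too (Hspb6 in 5 of those 10 fits), and Hspb7 was not (-1.72 ± 0.602, adjusted p = 0.0501).

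Of the antioxidant genes 6 of 23 were called lower in gastrocnemius and 1 higher, against 15.1% and 16.4% of all genes. Nqo1, a quinone reductase driven by Nrf2, had 12.7, 10.7, 10.5, 12.7 and 15.1 CPM in gastrocnemius and 20.9, 29.8, 33.5, 17.6 and 37.7 in soleus. No gastrocnemius value reached the lowest soleus value, and the log2 difference was -1.18 ± 0.21 (adjusted p = 0.00274). The glutathione peroxidases Gpx1 and Gpx3 had -1.64 ± 0.35 and -0.98 ± 0.26, and Prdx3, a mitochondrial peroxiredoxin, was the member called higher (0.43 ± 0.099). The mitochondrial superoxide dismutase Sod2 was not called (0.21, adjusted p = 0.188).

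In the atrophy list 10 of 25 genes were called higher in gastrocnemius and 4 lower, against 16.4% and 15.1% of all genes. The list median of 0.32 turned to -0.048 with library totals. Trim63 (MuRF1), a ubiquitin ligase that tags myosin, had 188, 196, 217, 174 and 180.5 CPM in gastrocnemius and 161, 75.5, 135, 101 and 102 in soleus, with a log2 difference of 0.73 ± 0.18 (adjusted p = 0.0124). The groups did not overlap. Foxo6 (1.53 ± 0.23) and Foxo4 (0.94 ± 0.22) were called higher and Foxo3 lower (-0.51 ± 0.13), while Foxo1 was not called (-0.17, adjusted p = 0.240). The lysosomal protease Ctsl (-0.72 ± 0.195) and the autophagy gene Gabarapl1 (-0.74 ± 0.24) were called lower, the latter in 3 of the 10 fits that left out 1 library. Without gastrocnemius library 5, 2 genes of the list were called lower. Among growth genes, Mstn, the muscle growth inhibitor myostatin, had 4.23, 54.999, 11.03, 13.6 and 5.82 CPM in gastrocnemius and 0.564, 0.856, 0.956, 3.46 and 0.324 in soleus. The groups did not overlap, and the log2 difference was 3.87 ± 0.86 (adjusted p = 0.00836), 2.83 without gastrocnemius library 2 and 4.73 without soleus library 4. Ky, a protease family member of the Z-disc, was called higher (3.38 ± 0.32), and Igfbp6, which binds IGF2, and the methyltransferase gene Mettl21c were called lower (-1.91 ± 0.405 and -1.79 ± 0.36). Igf1 was not called (-0.72 ± 0.31, adjusted p = 0.0967).

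Synaptic genes, a list that shares Myog with the fibre type factors, were called in both directions. Of 16 genes 2 were called higher, Ache (acetylcholinesterase, 1.42 ± 0.204) and the receptor subunit Chrnb1 (0.71 ± 0.14), and 4 lower, Colq, Chrna1 (-2.25 ± 0.53), Myog and the factor Etv5 (-1.34 ± 0.35). Over all genes tested 16.4% were called higher and 15.1% lower. Ache and its tail Colq thus had differences of opposite sign. Satellite cell markers had 4 of 9 called lower, among them Pax7, which marks these stem cells (2.05 ± 0.497 CPM in gastrocnemius and 3.35 ± 0.496 in soleus, -0.703 ± 0.19), and Myf5 (-1.66 ± 0.37).

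Few vessel markers were called between the muscles, where 16.4% of all genes were called higher in gastrocnemius and 15.1% lower. Of 16 endothelial genes 2 were called higher, Sox17 (0.68 ± 0.23) and Sox18 (0.66 ± 0.22), and 1 lower, Vwf (-0.61 ± 0.21), and their median was 0.15, turning to -0.18 with library totals. Cdh5, the cadherin of endothelial junctions, had 108 ± 22.2 CPM in gastrocnemius and 85.5 ± 18.1 in soleus, a log2 difference of 0.33 ± 0.18 (adjusted p = 0.181), or -0.0039 with library totals. The summed level of the 16 tested endothelial markers was 366 to 597 CPM in gastrocnemius and 396 to 558 in soleus, and Cldn5 had no count in any ischemic library. Of 13 mural markers none was called higher and 2 lower, Cspg4 (-1.204 ± 0.37) and Tagln (-0.66 ± 0.18, its gene model overlapping Sidt2), a share near the 15.1% of all genes. Leaving out 1 library gave 1 to 2 mural markers called lower. Sox17, Sox18, Vwf and Cspg4 were each called in 3 of the 10 fits that left out 1 library.

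Hypoxia genes were split, with 7 of 22 called higher in gastrocnemius and 6 lower with a median of 0.063 that was -0.27 with library totals. Egln1, the main prolyl hydroxylase that marks HIF for removal, had 68.3, 118, 111, 88.4 and 107 CPM in gastrocnemius and 43.9, 53.6, 59.5, 44.1 and 59.8 in soleus. The groups did not overlap, and the log2 difference was 0.92 ± 0.16 (adjusted p = 0.00263). Epas1 (HIF-2 alpha, 0.94 ± 0.15), P4ha1 (0.71 ± 0.21), Egln3 (0.68 ± 0.17) and the Myc antagonist Mxi1 (1.05 ± 0.15) were called higher. Bnip3, a mitophagy receptor, had -0.62 ± 0.12 and Ndrg1 -0.68 ± 0.19, both called lower. Hif1a itself had 34.8 ± 7.52 CPM in gastrocnemius and 47.2 ± 5.92 in soleus, a log2 difference of -0.44 ± 0.15 (adjusted p = 0.0515), and Vegfa, the main endothelial growth factor, 302 ± 98.2 CPM in gastrocnemius and 273 ± 42.9 in soleus, a log2 difference of 0.15 ± 0.23 (adjusted p = 0.651), or -0.18 with library totals. Neither was called. The hypoxia genes called lower numbered 2 without gastrocnemius library 5 and 3 without soleus library 2. Of 17 angiogenic genes 4 were called lower, among them Fgf1 (-1.53 ± 0.46) and Esm1 (-1.12 ± 0.25), and 2 higher, Pdgfa (0.401 ± 0.13) and Pdgfb (0.36 ± 0.11). The shares over all genes were 15.1% lower and 16.4% higher. In the fits that left out 1 of the 10 libraries Fgf1 was called in 6, Pdgfa in 4 and Pdgfb in 5. The angiogenic genes called lower numbered 7 without gastrocnemius library 1, 2 without gastrocnemius library 4 or 5 or soleus library 2, and 1 without soleus library 3. None was called higher without gastrocnemius library 3 or soleus library 3 or 4, and 1 without gastrocnemius library 4 or soleus library 2 or 5.

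All called genes of the fibroblast, matrix and macrophage lists were higher in ischemic soleus. Of 12 fibroblast markers 8 were called lower in gastrocnemius and none higher, with a median of -1.24. Pdgfra, the receptor of fibro-adipogenic progenitors, had 39.5, 17.1, 27.7, 28.4 and 22.8 CPM in gastrocnemius and 56.7, 50.3, 46.02, 72.9 and 43.5 in soleus. The groups did not overlap, with gastrocnemius library 1 nearest to soleus and library 2 farthest, and the log2 difference was -0.99 ± 0.22 (adjusted p = 0.00753). Pi16, a marker of universal fibroblasts, had -1.86 ± 0.56, Clec3b -1.54 ± 0.27, Dpt -1.38 ± 0.31 and the proteoglycan Dcn -0.99 ± 0.26. The summed level of the 12 tested markers was 8380.1, 1885, 3734, 4035 and 3142 CPM in gastrocnemius libraries and 7384 to 13114 in soleus. Gastrocnemius library 1 thus reached into the soleus range and library 2 was lowest. Matrix genes had 6 of 30 called lower and none higher (median -0.77), a share not far from the 15.1% of all genes called lower. They were led by Col14a1 (-1.57 ± 0.48), the crosslinking enzyme Loxl2 (-1.38 ± 0.36, its gene model overlapping an unnamed one), fibronectin (Fn1, -1.37 ± 0.42) and fibrillin 1 (Fbn1, -1.31 ± 0.302). The fibrillar collagens Col3a1 (-1.23 ± 0.51, adjusted p = 0.0848) and Col1a1 (-1.16 ± 0.59, adjusted p = 0.151) were not called. Without gastrocnemius library 1, 12 of the fibroblast and 25 of the matrix genes were called lower, while leaving out any other library gave 6 to 8 and 3 to 6. The matrix count fell to 3 without gastrocnemius library 5, soleus library 1 or soleus library 4. Of 8 tendon genes 1 was called lower and none higher, with 0 to 3 called lower when 1 library was left out, the most without gastrocnemius library 1.

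Of 17 macrophage genes 6 were called lower in gastrocnemius, against 15.1% of all genes, and none higher (median -0.88). They included the complement genes C1qa (-1.15 ± 0.401), C1qb (-1.07 ± 0.37) and C1qc (-1.02 ± 0.33), the resident macrophage receptors Lyve1 (-1.27 ± 0.29) and Mrc1 (-1.06 ± 0.36), and the growth factor receptor Csf1r (-0.96 ± 0.304). The summed level of the tested markers was 136 to 566 CPM in gastrocnemius and 454 to 739 in soleus, so the groups overlapped. Without gastrocnemius library 1, 13 were called lower, and 1 when any 1 of gastrocnemius libraries 3, 4 and 5 and soleus libraries 1, 2, 3 and 4 was left out. Without gastrocnemius library 2 or soleus library 5 the number was 4. Of 4 tested genes of other leukocytes the helper T cell and macrophage receptor Cd4 (-1.004 ± 0.32) and the mast cell tryptase Tpsab1 (-1.61 ± 0.45) were called lower, and none higher, with 0 to 3 called lower when 1 library was left out (none without gastrocnemius library 4 or 5 or soleus library 3). C4b, a complement component named here after its values were seen, had 164, 30.96, 37.1, 30.2 and 35.2 CPM in gastrocnemius and 403, 213, 246, 619 and 247 in soleus. Gastrocnemius library 1 lay above its group, the muscles did not overlap, and the log2 difference was -2.54 ± 0.55 (adjusted p = 0.00753), or -3.36 without gastrocnemius library 1, with a gene model that overlaps that of another complement C4 entry. Interferon genes had 2 of 14 called lower, among them Ifi27 (-0.92 ± 0.12), and none higher, a share near that of all genes. None of 4 erythrocyte genes was called by edgeR, with 0 at an unadjusted p under 0.05 and 0 called lower by DESeq2.

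Fat and nerve markers varied by library. Adipoq, the adipocyte hormone adiponectin, had 36.5, 1.68, 3.35, 1.97 and 1.99 CPM in gastrocnemius and 19.98, 24.95, 114, 163 and 15.3 in soleus. The groups overlapped through gastrocnemius library 1, soleus libraries 3 and 4 were highest, and the log2 difference of -2.89 was not called (adjusted p = 0.063), or -4.89 without that library. Of 9 adipocyte genes 1 was called lower, Cidea (-2.54 ± 0.58), and none higher, while without gastrocnemius library 1 the number called lower was 8. With all 10 libraries 15.1% of all genes were called lower. The summed level of the tested adipocyte markers was 244 to 471 CPM in gastrocnemius and 341 to 804 in soleus. Schwann cell genes had 2 of 7 called lower, Cnp (-1.74 ± 0.29) and Pmp22 (-1.07 ± 0.34), and the summed level was 25.9 to 213 CPM in gastrocnemius and 130.5 to 239 in soleus. Without gastrocnemius library 1, 6 Schwann cell genes were called lower, and 1 when any 1 of gastrocnemius libraries 3, 4 and 5 and soleus libraries 1, 2, 3 and 4 was left out. The part of these cells in the differences between the muscles was not tested.

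Few genes that respond to acute stimuli or time of day were called. None of 17 immediate early genes was called by edgeR (median -0.68), with 3 at an unadjusted p under 0.05 and 3 called lower by DESeq2. Egr1, a stimulus-induced factor, had 77.5, 13.9, 42.9, 18.9 and 28.8 CPM in gastrocnemius and 181, 263, 83.3, 11.6 and 20.3 in soleus. Within soleus, libraries 1, 2 and 3 were high and 4 and 5 low, and the log2 difference of -1.62 was not called (adjusted p = 0.140). Of 19 clock genes 1 was called higher, Bhlhe41 (1.87 ± 0.45), and 2 lower, Cry2 (-0.75 ± 0.11) and Npas2 (-0.91 ± 0.25), while the core genes Arntl and Nr1d1 were not called (-0.036 and 0.54, adjusted p = 0.951 and 0.403). Clock genes called higher numbered 3 without gastrocnemius library 1 and 2 without soleus library 3 or 5. With all 10 libraries 16.4% of all genes were called higher and 15.1% lower. The clock median was 0.15, and -0.16 with library totals.

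The same comparison in the sham libraries sets the muscle difference without ischemia beside it. Fitted alone without sham soleus library 4, the sham libraries gave 3562 called genes (30.5%), and 1387 with it (11.9%). Of the genes called in ischemia 2372 were also called in sham without that library, which is 64.4% of the ischemic and 66.6% of the sham calls, and 2371 of them had the same sign. Across genes, which are not independent, the sham and ischemic differences had a Pearson correlation of 0.86 without that library and 0.81 with it. No gene was called by edgeR for a change of the muscle difference between sham and ischemia over all 20 libraries, with 758 genes at an unadjusted p under 0.05 and 2 called by DESeq2.

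Side by side, the fast sarcomere list had a median of 4.85 in ischemia and 5.15 in sham without library 4, and the slow sarcomere list -2.29 and -3.4997. For glycolysis these medians were 2.22 and 2.52, for fibroblasts -1.24 and -0.23, and for macrophages -0.88 and -0.082. With all 10 sham libraries the sham medians of fibroblasts and macrophages were -0.37 and -0.4003. In the interaction test none of the members of these 5 lists was called. The genes with the smallest interaction p were Hs3st1, Birc3, Enpp2 and Specc1. Hs3st1, a heparan sulfate sulfotransferase, had a muscle difference of 0.34 ± 0.21 in ischemia (adjusted p = 0.229) and 2.54 in sham without library 4. The change between them, ischemia minus sham, was -2.03 ± 0.33 (adjusted p = 0.0652) over 20 libraries and -2.17 ± 0.31 (adjusted p = 0.0148) without sham soleus library 4. Birc3, an inhibitor of cell death, had 0.83 ± 0.23 in ischemia and 2.22 in sham, a change over 20 libraries of -1.35 ± 0.296 (adjusted p = 0.721). For Enpp2 (autotaxin) the values were 0.074 ± 0.13 and 0.93, a change of -0.895 ± 0.22 (adjusted p = 0.721), and for Specc1, a cytoskeletal adaptor, 1.24 ± 0.12 and 2.08, a change of -0.82 ± 0.21 (adjusted p = 0.721). C4b had -0.21 in sham and -2.54 in ischemia (a change of -2.26 ± 0.85 (adjusted p = 0.721)), and Pvalb 7.94 and 4.73 (-3.08 ± 1.27 (adjusted p = 0.721)). Mybph had 3.01 in sham without library 4 and 1.57 with it, against 0.012 in ischemia, and the change was -2.98 ± 1.06 (adjusted p = 0.499) without that library and -1.505 ± 1.21 (adjusted p = 0.772) over 20 libraries. None of these differences between sham and ischemia passed the test over 20 libraries. The ischemic and sham values came from separate fits and the changes from a fit of both together. A change therefore need not equal the ischemic value minus the sham value.

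**Figure D5:**
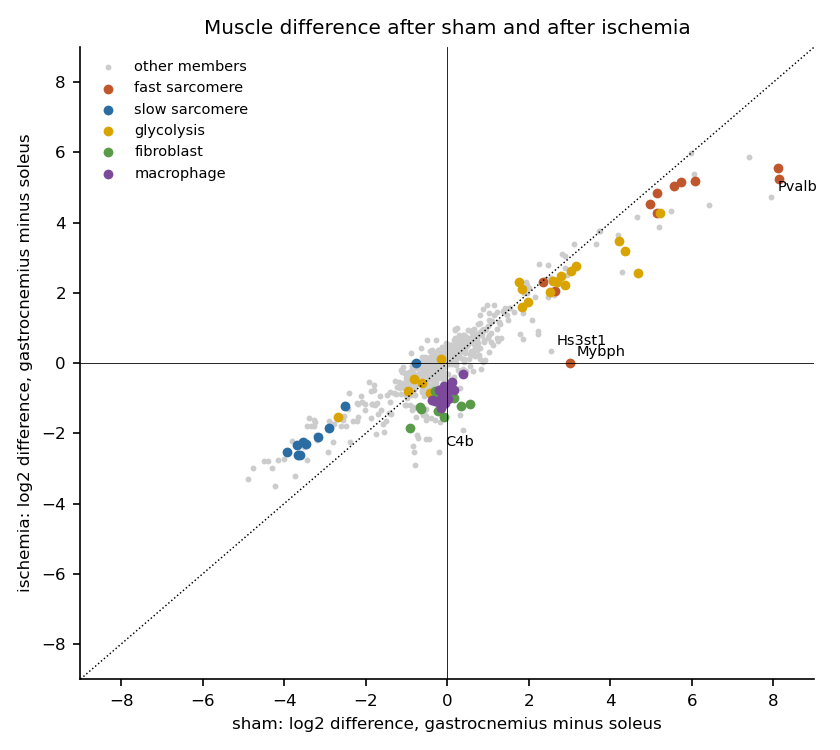
Log2 difference between gastrocnemius and soleus in ischemia (vertical) against that in sham without sham soleus library 4 (horizontal) for the members of the gene lists and the named genes, with 5 lists in colour and the line of equal differences dotted. The fast sarcomere and glycolysis medians are 4.85 and 2.22 in ischemia against 5.15 and 2.52 in sham, and the fibroblast and macrophage medians are -1.24 and -0.88 in ischemia against -0.23 and -0.082 in sham (-0.37 and -0.4003 with sham soleus library 4, not drawn).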

How the data were processed

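RNA of 20 rat muscle samples was made into stranded poly(A) libraries and sequenced from paired ends, per the labels' protocols. The authors deposited a table of 21926 genes with an expected count (an estimated count, not scaled) and an FPKM value for each library. The aligner, counter, genome build, annotation and use of strand in counting are not stated in the labels or the table. Expected counts were rounded to whole numbers. Ischemic libraries held 57459404 to 80549204 counts. Among low counts of these libraries 28.3% to 30.8% were multiples of 4, and what a count stands for is not stated.

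The 10 ischemic libraries were fitted alone with edgeR 4.0.16 (TMM scaling, robust quasi-likelihood, two-sided, Benjamini-Hochberg adjustment over 11693 genes that reached 1 FPKM in 5 or more libraries) in R 4.3.3. The sham libraries were fitted alone in the same way, and the change of the muscle difference over all 20. DESeq2 1.42.0, limma 3.58.1 (voom, and log2(FPKM + 1)), other scalings, filters and left-out libraries were alternatives. On simulated data the test recovered 89 of 100 genes changed by a log2 of 2 and 64 of 100 changed by 1. There were 8 false calls among the genes left unchanged. The simulation changed 200 of 11693 genes, as many up as down, so it does not cover calls that depend on the scaling. The 39 gene lists and the members were chosen with earlier results of these data known, and of 750 listed symbols 724 were matched. Lists are described by counts and medians and were not tested as sets. Named genes were the 12 called genes with the largest difference in each direction, with at least 5 FPKM and no overlap of the groups, members of each list with the largest called differences or highest level, and a few fixed genes, while C4b and some other members were added after their values were seen. Some members of the lists are not reported here. Promoters came from RefSeq.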

Additional observations from a re-analysis of the deposited data

Results flagged for a closer look

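Within each muscle, the values of 5 libraries were searched for a highest or lowest library whose gap to the next was too large for its group, and chance gives about 1 in 20 such groups. Of 440 groups of 5 values looked at, 52 had such a library. The groups share the same libraries and hold genes that vary together, so 52 cannot be set against that share. No cause was tested.

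Gastrocnemius library 2 was highest of its group in CPM for Actn3 at 20872, Cacna1s at 2129, Casq1 at 4988, Jph1 at 464, Kcnc4 at 277, Mafa at 31.6, Mstn at 54.999 and Mybpc2 at 13049.6. The same library was also highest for Mybph at 371, Myod1 at 69.4, Pvalb at 3623, Ryr1 at 6156, Six2 at 32.9, Tbx15 at 174, Tnni2 at 6805, Tnnt3 at 20545 and Tpm1 at 25323. Soleus library 4 was highest of its group in CPM for Actn3 at 965, Atp1b2 at 34.999, Fbn1 at 609.5, Fbp2 at 4.58, Gpd1 at 144, Gpd2 at 21.5, Mstn at 3.46, Mybpc2 at 491, Pvalb at 255 and Specc1 at 6.67. Soleus library 1 was highest of its group in CPM for AC128207.1 at 636, Actc1 at 795, Chrnb1 at 40.8, Jph1 at 100.1, Mybph at 658 and Myh3 at 565. Gastrocnemius library 1 was highest of its group in CPM for Actc1 at 248, Adipoq at 36.5, C4b at 164, Col1a1 at 2032 and Col3a1 at 3276. Gastrocnemius library 2 was lowest of its group in CPM for Cryab at 270.3, Esrrg at 13.1, Gbe1 at 50.9, Mb at 3268 and Slc16a1 at 32.9. Soleus library 2 was highest of its group in CPM for Cidea at 25.04, Cycs at 462 and Prkaa2 at 54.2. Soleus library 5 was highest of its group in CPM for Ckmt2 at 1393, Plin2 at 87.8 and Ppargc1a at 24.9. Soleus library 4 had the lowest slow share of its group with 88.1% for Myoz2 of Myoz2 and Myoz1 and 84.2% for Tpm3 of Tpm3 and Tpm1. Gastrocnemius library 3 was highest of its group in CPM for Ppargc1a at 41.7.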

How the results depend on the processing

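Of the 3685 genes called (1922 higher and 1763 lower), library totals gave 6201 (807 higher and 5394 lower), limma-trend on log2(FPKM + 1) 6387 (797 higher and 5590 lower) and all 20 libraries in the fit 1473 (920 higher and 553 lower). RLE factors, DESeq2, voom with quality weights, 3 other filters and the fit of 20 without sham soleus library 4 stayed within 1.5 times of each count. The medians of 10 of the 39 gene lists changed sign with library totals, and also 10 with limma-trend. Leaving out 1 library gave 2740 to 4869 calls, 1512 to 2423 higher and 1129 to 2446 lower, with the fewest lower without gastrocnemius library 5 and the most calls without gastrocnemius library 1. Library numbers were not taken as pairs: same-numbered muscles had correlations of deviations of 0.0001 for library 2 and 0.1518 to 0.3743 for the other 4, and the number was the best match for 3 of 5 gastrocnemius libraries, a hint from the data and not the design. A replicate block gave 4417 calls (2084 higher and 2333 lower). Among the genes named it ended the call of 6 and called 11 more, and it called 22 extracellular matrix, 10 macrophage and 5 adipocyte genes lower. For the change between sham and ischemia, leaving out 1 library gave 0 to 1 calls, 1 of them without sham soleus library 4 or sham gastrocnemius library 2, and DESeq2 2. Sham alone gave 1387, and 3562 without sham soleus library 4. Of 165 called genes named, 97 kept their call and direction under all 22 alternatives. Direction changed for these named genes, all but Hoxc10 uncalled, and the cause was not tested. The log2 difference turned, with library totals, to -0.0039 for Cdh5, -0.24 for Eno1, -0.28 for Enpp2, -0.16 for Gys1, -0.020 for Hoxc10, -0.026 for Hs3st1, -0.14 for Mt-co1, -0.33 for Mybph, -0.23 for Nfatc1, -0.14 for Sod2, -0.26 for Stac3 and -0.18 for Vegfa. The log2 difference turned, with limma-trend, to -0.018 for Cdh5, -0.25 for Eno1, -0.23 for Enpp2, -0.15 for Gys1, -0.015 for Hoxc10, -0.0046 for Hs3st1, -0.18 for Mt-co1, -0.19 for Nfatc1, -0.14 for Sod2, -0.26 for Stac3 and -0.26 for Vegfa. Other settings turned Ckmt2 to 0.051 (limma voom with quality weights), Mybpc1 to 0.0042 (edgeR RLE size factors), Mybpc1 to 0.0042 (DESeq2), Mybpc1 to 0.0074 (no filter on low values) and Mybpc1 to 0.013 (filterByExpr). With 1 library left out the difference ranged from -0.297 to 0.22 for Arntl, -0.19 to 0.15 for Ckmt2, -0.014 to 0.17 for Enpp2, -0.061 to 0.039 for Mybpc1, -0.33 to 1.26 for Mybph and -0.26 to 1.63 for Myh3. The number of libraries limits the precision, and values that rest on few counts, such as those below 1 CPM, have wide counting error.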
